A study of Mus musculus with 9 samples.

Results

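The metalloproteinases examined here are the matrix metalloproteinases (MMPs), the membrane-anchored ADAM proteases, the secreted ADAMTS proteases and the tissue inhibitors of metalloproteinases (TIMPs). Genes were chosen by symbol alone, as those beginning with Mmp, Adam, Adamts or Timp followed by a number. Of 19505 genes with a symbol on the array, 75 met this rule: 21 MMPs, 32 ADAMs, 18 ADAMTS proteases and 4 TIMPs. Each was represented by 1 transcript cluster, the unit into which the array summarises the probes of a gene. Mmp15, Mmp27, Adamts2, Adam1a and Adam34 were not analysed here.

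RNA came from submandibular salivary glands of 12-week-old female C57BL6/J mice and was measured on Clariom S arrays, with 3 biological replicates in each of 3 groups. Glands were collected 14 days after partial resection, 3 days after partial resection, or 3 days after mock surgery without resection. All 9 glands came from operated animals, and the only mock glands were taken on day 3, so that on day 14 resection and time since surgery cannot be told apart. Levels and differences are given on the authors' log2 scale. Its values reach 19.93, and how the scale was set is not described, so differences are not to be read as calibrated folds.

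MMPs cleave collagens, gelatin, elastin, proteoglycans and basement membrane proteins, and most are made as inactive precursors. ADAMs with an active protease domain release growth factors, cytokines and receptors from the cell surface, whereas ADAMTS proteases trim procollagens and cut large proteoglycans such as versican and aggrecan. TIMPs bind the active site of these enzymes. In injured tissue the enzymes are known to come largely from fibroblasts, macrophages and neutrophils, while several ADAMs are expressed mainly in testis and epididymis or in neurons.

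Median log2 values of all tested transcript clusters lay between 5.09 and 5.24 on the 9 arrays, and the correlation between arrays within a group was 0.985 to 0.990. The table carries no detection calls, so members were set against 5222 negative control rows of the same arrays, whose median averaged 4.55 ± 0.06 in day 14 resected, 4.70 ± 0.06 in day 3 resected and 4.46 ± 0.06 in mock arrays (SD, n = 3 arrays each). Of the 75 members, 42 lay below this median on all 9 arrays and 16 lay above it on all 9. Only Mmp2, Adam9, Adam10, Adam17 and Timp2 exceeded the 95th percentile of the negative controls on every array. No member came near that array maximum, the highest value being 13.09. The acinar transcription factor Bhlha15 was present in all groups. It measured 13.90 to 14.57 on day 14, 12.65 to 13.54 on day 3 and 13.78 to 14.62 in mock glands. Its fall on day 3 is given with the other markers. Dcpp3, a marker of sublingual mucous cells, varied widely between arrays and is also given there.

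A limited set of these genes was higher in day 3 resected glands than in mock glands. Timp1 and the macrophage elastase Mmp12 differed by more than 5 on the log2 scale, and the stromelysin Mmp3, the membrane-type protease Mmp14 and the gelatinase Mmp2 by more than 2. In all, 10 of 75 members rose and 0 fell at an adjusted p under 0.05 (limma, all arrays in 1 model, Benjamini-Hochberg over 22206 transcript clusters). Over all transcript clusters 4.92% were called higher and 1.36% lower. The risers were 6 of 21 MMPs, 1 of 32 ADAMs, 2 of 18 ADAMTS proteases and 1 of 4 TIMPs. The median difference was 0.60 for the MMPs, -0.08 for the ADAMs, 0.13 for the ADAMTS proteases and 0.29 for the TIMPs, against -0.06 over all transcript clusters tested. The day 3 resected arrays lay wholly above the mock arrays for 22 of 75 members, beside 11.2% of all transcript clusters, and wholly below them for 4 of 75, beside 11.8%. In RNA from whole glands, a change in the number of cells of a type and a change in RNA per cell cannot be told apart.

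The count of 10 rested in part on single arrays. It was 5 without day 3 resected replicate 3, 5 without mock replicate 1 and 6 without mock replicate 3, and 7 to 11 without any other array. The median of the MMPs was 0.31 without day 3 resected replicate 3, against 0.60 with it. Without the dimmest 30% of transcript clusters, which leaves 12 of the 21 MMPs, it was 1.22. That filter used the mean over all arrays, so a gene high only on day 3 could be kept by its day 3 values. The median of 1.22 is therefore not independent of the rise. Timp1, Mmp12, Mmp14, Mmp3 and Mmp2 passed under all 16 alternatives that could change them, whereas Adam8, Adamts1, Adamts6, Mmp13 and Mmp9 each lost the call under at least 4. Day 3 resected replicate 3 was the highest array of its group for 10 of the 10 risers. Among all transcript clusters called higher on day 3 it was the highest for 50.6%.

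**Figure D1:**
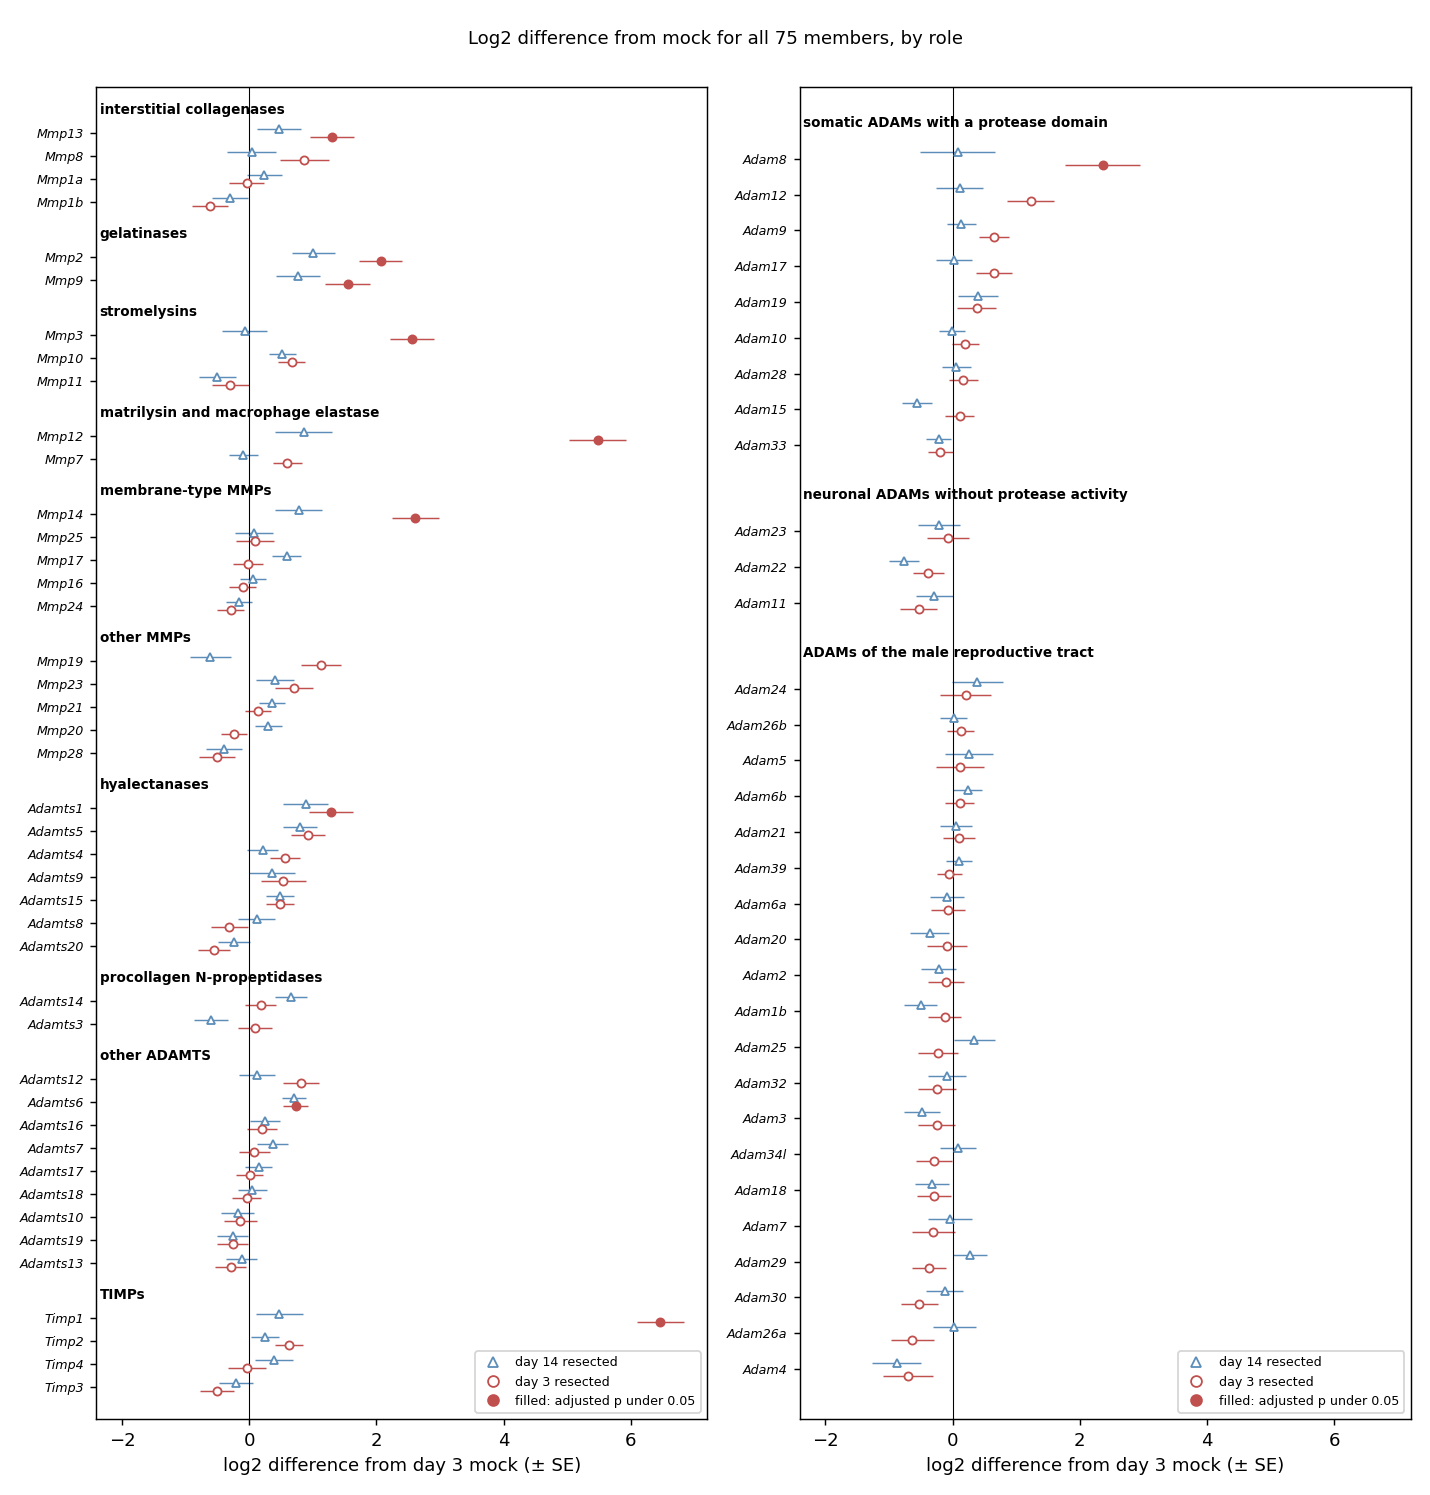
Log2 difference from mock (± SE) for each of the 75 members, grouped by role, with day 14 resected as triangles and day 3 resected as circles. Filled symbols mark an adjusted p under 0.05. The 10 filled circles are all day 3 values above 0, led by Timp1 at 6.46 and Mmp12 at 5.48, and no day 14 triangle is filled.

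Among the inhibitors, Timp1 stood apart. Timp1, a secreted inhibitor of most MMPs that is known to be induced in wounded tissue, measured 3.85, 4.07 and 4.14 on day 14, 9.16, 9.82 and 11.04 on day 3, and 3.81, 3.28 and 3.55 in mock glands. The 3 day 3 arrays lay far above the other 6, all of which were below the negative control median. The difference on day 3 was 6.46 ± 0.37 (SE; limma adjusted p = 1.3e-06). Timp2, which also takes part in activating the precursor of the Mmp2 protein at the cell surface, measured 12.61, 12.72 and 13.09 on day 3 and 12.44, 12.28 and 11.84 in mock glands. These groups did not overlap, but the difference of 0.62 ± 0.22 did not pass (adjusted p = 0.146). Timp3, which binds to matrix and inhibits several ADAM and ADAMTS enzymes as well as MMPs, measured 5.83, 5.96 and 6.21 on day 3 and 7.11, 6.38 and 6.05 in mock glands. Its groups overlapped and the difference of -0.51 ± 0.27 did not pass (adjusted p = 0.332). Timp4 lay below the negative control median on all 9 arrays and differed by -0.03 ± 0.30.

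**Figure D2:**
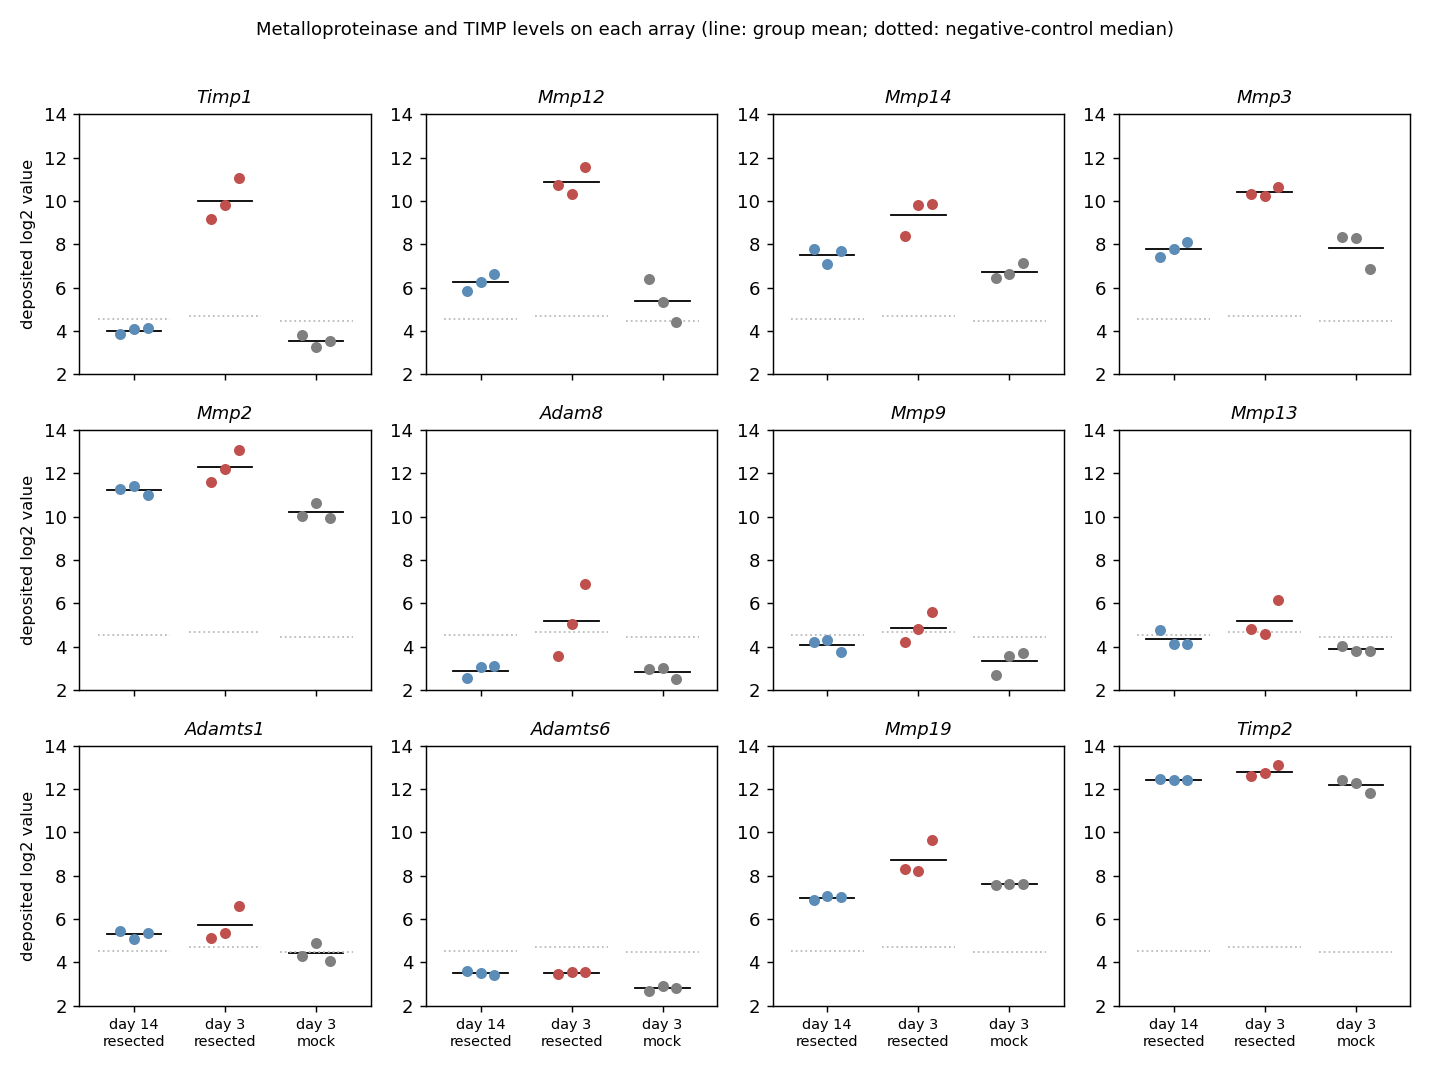
Deposited log2 value of 12 members on each array, with day 14 resected left, day 3 resected in the middle and day 3 mock right. Lines are group means and dotted lines the mean negative control median of the group. The Timp1 points of day 3 lie between 9.16 and 11.04, above all other arrays, whereas Timp2 stays between 11.84 and 13.09 throughout.

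Of the MMPs, 10 genes stand next to each other on mouse chromosome 9, in the RefSeq order Mmp13, Mmp12, Mmp1b, Mmp3, Mmp1a, Mmp10, Mmp8, Mmp27, Mmp20 and Mmp7. Of the 9 measured here, 3 rose on day 3 (Mmp13, Mmp12 and Mmp3), and the others differed by -0.62 to 0.87 without passing. The 100 bases before the annotated start of 6 of these genes are shown because neighbours with like upstream letters had unlike values. They are RefSeq windows of assembly GRCm38.p6 and lie on the plus strand, at chr9:7272414-7272513 for Mmp13, chr9:7347274-7347373 for the second start of Mmp12, chr9:7445722-7445821 for Mmp3, chr9:7464041-7464140 for Mmp1a, chr9:7502242-7502341 for Mmp10 and chr9:7691990-7692089 for the first start of Mmp7. Capitals mark matches to TGANTCA, the letters bound by AP-1 transcription factors, and to TATAAA, the TATA box letters, each searched on both strands.
Mmp13: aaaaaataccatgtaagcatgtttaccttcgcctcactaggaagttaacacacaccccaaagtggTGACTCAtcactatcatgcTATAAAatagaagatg
Mmp12: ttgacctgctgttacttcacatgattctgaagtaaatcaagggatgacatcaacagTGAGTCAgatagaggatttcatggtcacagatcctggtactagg
Mmp3: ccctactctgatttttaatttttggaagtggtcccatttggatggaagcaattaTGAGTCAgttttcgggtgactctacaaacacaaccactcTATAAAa
Mmp1a: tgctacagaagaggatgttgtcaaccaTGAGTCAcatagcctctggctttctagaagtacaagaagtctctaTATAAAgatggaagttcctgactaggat
Mmp10: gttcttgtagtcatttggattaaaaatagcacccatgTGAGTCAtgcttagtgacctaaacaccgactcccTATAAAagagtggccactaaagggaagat
Mmp7: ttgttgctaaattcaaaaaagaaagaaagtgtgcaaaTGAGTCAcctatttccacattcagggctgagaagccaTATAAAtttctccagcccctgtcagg

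Within these 100 bases, 8 of the 9 chromosome 9 genes held the AP-1 letters and 7 held both motifs. Of all 32851 RefSeq windows, 2.73% held the AP-1 letters over the same length, 5.56% the TATA letters and 0.234% both. The distance in bases from the first AP-1 base to the annotated start was 35 for Mmp13, 44 for Mmp12 and 46 for Mmp3. It was 63 for Mmp10 and Mmp7, 73 for Mmp1a, 93 for Mmp1b and 95 for Mmp20. The nearest TATA letters began 7 bases before the start in Mmp3 and 16 in Mmp13. They began at 26 in Mmp7, 28 in Mmp1a, 29 in Mmp10, 49 in Mmp1b and 58 in Mmp20. The annotated starts may thus not be equivalent between genes. The windows of the first start of Mmp12, the second start of Mmp7 and Mmp8 held neither motif. The same letters were present upstream of members that passed and of members that did not: Mmp3 differed by 2.56 and Mmp1a by -0.04. Of the 45 members with a RefSeq window, 9 had the AP-1 letters within 100 bases, and 6 of these 9 were not called on day 3. Low signal limits that count. Mmp1a, Mmp1b, Mmp7, Mmp10 and Adam29 lay above the negative control median on 0 arrays and Mmp20 on 1. Of the 7 risers with a window, 3 held the AP-1 letters within 250 bases, the 3 on chromosome 9. Over that length, 6.75% of all RefSeq windows and 12 of the 45 members held them. A match of letters is a description and was not tested as a binding site.

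**Figure D3:**
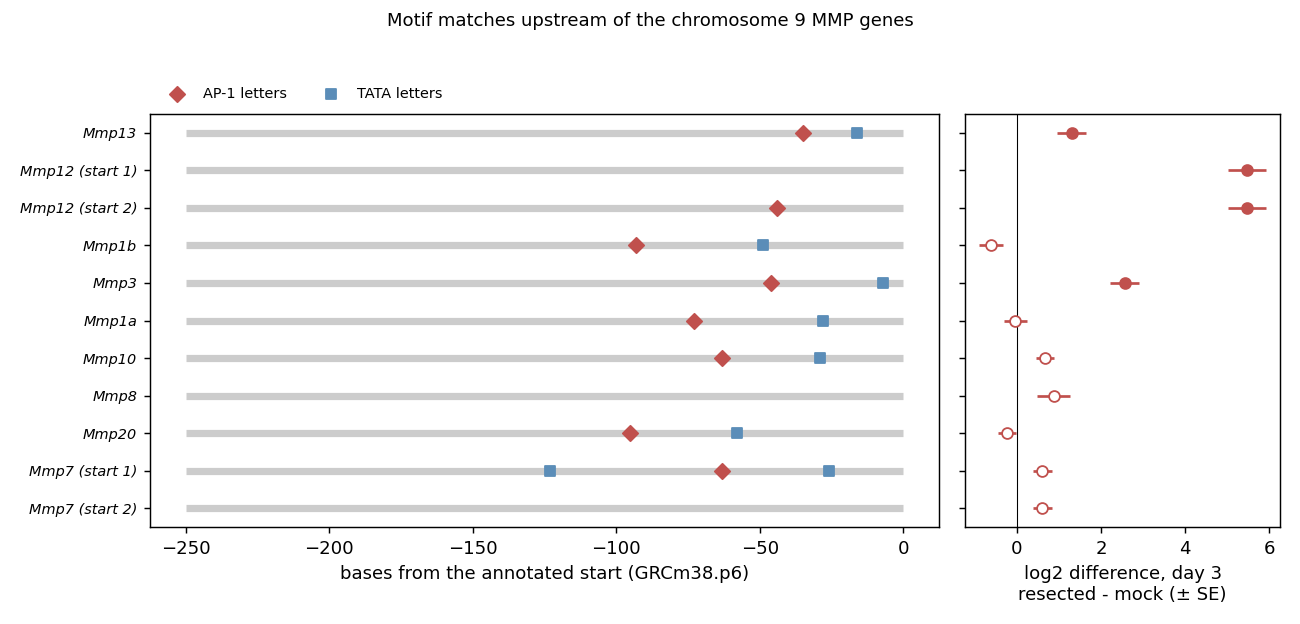
Left, positions of AP-1 letters (diamonds) and TATA letters (squares) in the 250 bases before each annotated start of the chromosome 9 MMP genes, in the order they stand on the chromosome. Right, the log2 difference of the gene between day 3 resected and mock glands (± SE), filled where the adjusted p is under 0.05. AP-1 letters lie 35 to 95 bases before the start of 8 genes, 3 of which have filled symbols.

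The macrophage elastase Mmp12 changed most of the MMPs. It measured 5.85, 6.26 and 6.64 on day 14, 10.72, 10.30 and 11.59 on day 3, and 6.42, 5.33 and 4.41 in mock glands. The day 3 arrays lay above the other 6, and the mock arrays were the most spread of the 3 groups. The difference on day 3 was 5.48 ± 0.45 (adjusted p = 1.5e-05), with 4.99 to 6.0 when 1 array was left out. Mmp7 (matrilysin), an epithelial protease without the domain that binds collagen, measured 4.33, 4.29 and 3.91 on day 3 and 3.65, 3.46 and 3.61 in mock glands. It lay below the negative control median on every array, its groups did not overlap, and the difference of 0.60 ± 0.23 did not pass (adjusted p = 0.174).

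The stromelysins, which cut proteoglycans, fibronectin and other MMP precursors, were unlike one another. Mmp3 (stromelysin 1) measured 7.40, 7.79 and 8.11 on day 14, 10.34, 10.22 and 10.65 on day 3, and 8.35, 8.28 and 6.88 in mock glands. The day 3 arrays were close together and above all others, and the difference was 2.56 ± 0.35 (adjusted p = 7.1e-04). Mmp10 (stromelysin 2), which stands 2 genes further along chromosome 9, measured 3.27, 3.03 and 3.27 on day 3 and 2.75, 2.54 and 2.25 in mock glands. All of these values are below the negative control median, and its difference of 0.67 ± 0.21 did not pass (adjusted p = 0.0909) except after quantile normalisation (0.77, adjusted p = 0.0484). Mmp11 (stromelysin 3) differed by -0.30 ± 0.29 with overlapping groups.

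Both gelatinases, which degrade denatured collagen and basement membrane collagen, rose on day 3. Mmp2 (gelatinase A), a product of fibroblasts, measured 11.30, 11.41 and 10.98 on day 14, 11.58, 12.19 and 13.09 on day 3, and 10.05, 10.65 and 9.95 in mock glands. Each day 3 array exceeded each day 14 array, and each day 14 array exceeded each mock array. The difference on day 3 was 2.07 ± 0.34 (adjusted p = 0.0023). Mmp9 (gelatinase B), stored by neutrophils and made by macrophages, measured 4.21, 4.31 and 3.75 on day 14, 4.20, 4.84 and 5.58 on day 3, and 2.69, 3.57 and 3.71 in mock glands. Its values were near or below the negative control median except on 2 day 3 arrays, and the difference of 1.55 ± 0.35 passed (adjusted p = 0.019). This call ended without mock replicate 1, day 3 resected replicate 2 or day 3 resected replicate 3, with values of 1.2 to 1.89 over the arrays left out.

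Among the membrane-type MMPs, which act on the cell surface, Mmp14 rose and the other 4 measured did not. Mmp14 (MT1-MMP), a collagenase that activates the Mmp2 precursor, measured 7.77, 7.09 and 7.68 on day 14, 8.37, 9.80 and 9.88 on day 3, and 6.43, 6.62 and 7.16 in mock glands. The day 3 arrays lay above the rest, and the difference was 2.61 ± 0.37 (adjusted p = 9.3e-04). Mmp16, Mmp17, Mmp24 and Mmp25 differed by -0.29 to 0.09 and lay below the negative control median on all arrays. Thus, of the proteins known to act together in the activation of Mmp2 at the cell surface, the transcripts of Mmp14 and Mmp2 passed and that of Timp2 did not.

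The interstitial collagenases cut fibrillar collagen. Mmp13 (collagenase 3), the main such enzyme of rodents, measured 4.76, 4.13 and 4.14 on day 14, 4.83, 4.57 and 6.14 on day 3, and 4.02, 3.82 and 3.78 in mock glands. Only 3 of the 9 arrays, none of them mock, lay above the negative control median. Day 3 resected replicate 3 stood apart from the other 2 arrays of its group. The difference of 1.30 ± 0.35 passed narrowly (adjusted p = 0.046) and lost the call in 8 of the 9 fits that left out 1 array, with a value of 0.82 without day 3 resected replicate 3. Mmp8, the collagenase of neutrophil granules, measured 4.25, 4.41 and 6.07 on day 3 and 3.99, 3.89 and 4.24 in mock glands. Here again the third day 3 array was high, the only 1 above the negative control median. The difference of 0.87 ± 0.39 did not pass (adjusted p = 0.256), with 0.29 without that array. Mmp1a and Mmp1b, mouse relatives of the human interstitial collagenase, were below the negative control median on all arrays and differed by -0.04 ± 0.27 and -0.62 ± 0.28. They are closely related copies, and whether their probes tell them apart was not tested.

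Mmp19, a protease of basement membrane and matrix proteins, measured 6.89, 7.07 and 7.0 on day 14, 8.31, 8.23 and 9.66 on day 3, and 7.58, 7.62 and 7.60 in mock glands. The groups were fully separate, in the order day 3, mock, day 14. Against mock the day 3 difference of 1.13 ± 0.32 missed the threshold (adjusted p = 0.0555). It passed without day 3 resected replicate 1 or replicate 2, with trend and robust variances and without the dimmest 30% of transcript clusters (adjusted p of 0.0379 to 0.0466), and was 0.67 without day 3 resected replicate 3. Mmp28 (epilysin), an epithelial MMP, differed by -0.51 ± 0.28 with overlapping groups and did not pass (adjusted p = 0.369).

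Of the 9 ADAMs with an active protease domain and expression outside the reproductive tract, 8 were above 0 on day 3 and 1 of them passed. Adam8, a shedding protease of leukocytes, measured 2.56, 3.05 and 3.09 on day 14, 3.56, 5.07 and 6.89 on day 3, and 2.97, 3.00 and 2.49 in mock glands. The day 3 arrays were widely spread, and 2 of them held the only values above the negative control median. The difference was 2.36 ± 0.59 (adjusted p = 0.0303). It was 1.5 without day 3 resected replicate 3 and 3.16 without replicate 1, and the call ended without any 1 mock array, without day 3 resected replicate 2 or 3, and without day 14 resected replicate 1. Adam12 (meltrin alpha), known from activated fibroblasts and regenerating muscle, measured 4.20, 5.0 and 6.14 on day 3 and 3.91, 3.82 and 3.93 in mock glands. Only 2 of its arrays lay above the negative control median. The order of its day 3 arrays was that of Adam8, and its difference of 1.23 ± 0.37 did not pass (adjusted p = 0.0722). It was 0.72 without day 3 resected replicate 3 and passed without replicate 1, at 1.69 (adjusted p = 0.00606).

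The widely expressed sheddases differed less. Adam17, which releases tumour necrosis factor and several ligands of the epidermal growth factor receptor, measured 9.81, 10.10 and 10.90 on day 3 and 9.78, 9.43 and 9.65 in mock glands. The groups were just separate, and the difference of 0.65 ± 0.28 did not pass (adjusted p = 0.242) and was 0.33 without day 3 resected replicate 3. Adam9 (meltrin gamma) measured 11.18, 11.12 and 11.64 on day 3 and 10.88, 10.41 and 10.72 in mock glands, a difference of 0.65 ± 0.23 (adjusted p = 0.128). Adam10, which cleaves Notch receptors and the epidermal growth factor precursor, measured 10.66, 11.00 and 10.80 on day 3 and 10.34, 10.60 and 10.91 in mock glands. Its groups overlapped and the difference was 0.20 ± 0.21 (adjusted p = 0.689). Adam19, Adam28, Adam15 and Adam33 differed by 0.38, 0.17, 0.11 and -0.19 and did not pass.

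Most of the remaining ADAMs were at low signal. Adam4 and Adam22 lay above the negative control median on 7 and 5 of the 9 arrays. The 20 ADAMs known mainly from testis, sperm or epididymis differed by -0.70 (Adam4) to 0.21 on day 3. By limma 0 were called, and 0 had an unadjusted p under 0.05, a level that 18.6% of all transcript clusters reached. The 3 neuronal ADAMs without protease activity, Adam11, Adam22 and Adam23, differed by -0.53, -0.38 and -0.07 and did not pass. Several of these genes are close copies of each other (Adam26a and Adam26b, Adam6a and Adam6b), and their probes may not be specific.

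Among the ADAMTS proteases, the hyalectanases cut versican, aggrecan and related proteoglycans. Adamts1 measured 5.46, 5.10 and 5.37 on day 14, 5.14, 5.37 and 6.61 on day 3, and 4.29, 4.91 and 4.05 in mock glands. Both resected groups lay above mock, and the day 3 difference of 1.29 ± 0.35 passed at the edge of the threshold (adjusted p = 0.0488), with 0.84 without day 3 resected replicate 3. Adamts5 measured 6.26, 6.75 and 5.99 on day 14, 6.28, 6.52 and 6.59 on day 3, and 5.52, 5.97 and 5.10 in mock glands. Its resected arrays lay above the mock arrays on both days without overlap, and its day 3 difference of 0.93 ± 0.27 did not pass (adjusted p = 0.0613). It passed, at 1.15, without mock replicate 2 (adjusted p = 0.0326). Adamts4, Adamts9 and Adamts15 differed by 0.56, 0.54 and 0.49 on day 3 and did not pass. The other hyalectanases measured, Adamts8 and Adamts20, went the other way, at -0.31 ± 0.29 and -0.55 ± 0.25. Neither passed (adjusted p = 0.632 and 0.261), although the day 3 arrays of Adamts20 lay wholly below mock. Both genes lay below the negative control median on all 9 arrays.

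Adamts6, a secreted protease related to Adamts10, rose by the smallest amount of the 10. It measured 3.59, 3.50 and 3.44 on day 14, 3.48, 3.54 and 3.57 on day 3, and 2.69, 2.92 and 2.80 in mock glands. The 2 resected groups were alike and above mock, but all 9 values were below the negative control median, and the mean of that median was itself 4.70 on day 3 against 4.46 in mock arrays. The difference of 0.73 ± 0.19 passed (adjusted p = 0.0379), and the call ended in 8 of the 9 fits that left out 1 array. Adamts12, which cleaves cartilage oligomeric matrix protein, differed by 0.82 ± 0.28 (adjusted p = 0.123) and passed without day 3 resected replicate 1, at 1.08 (adjusted p = 0.0441). Adamts14, a procollagen N-propeptidase, differed by 0.18 ± 0.25, and Adamts13, the protease of von Willebrand factor, by -0.29 ± 0.24.

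Genes that feed into or restrain these enzymes were counted from lists of the pathway. Of 9 measured genes of plasminogen activation, the route by which plasmin activates MMP precursors, 3 rose and 0 fell on day 3, beside 4.92% and 1.36% of all transcript clusters. Anxa2 and S100a10, which together form a cell surface receptor for plasminogen, rose by 2.49 ± 0.38 (adjusted p = 0.0014) and 1.63 ± 0.32 (adjusted p = 0.00784). Plat, the tissue-type activator, rose by 1.26 ± 0.31 (adjusted p = 0.0297), a call that ended without mock replicate 3, without day 3 resected replicate 2 or 3, and after quantile normalisation. Plau, the urokinase-type activator, measured 7.54, 7.63 and 8.49 on day 3 and 8.47, 9.01 and 8.15 in mock glands, and its difference of -0.66 ± 0.29 did not pass (adjusted p = 0.252). Its receptor Plaur differed by 1.19 ± 0.39 (adjusted p = 0.104).

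Of 9 activators and inhibitors outside the TIMP family, 1 rose, where 4.92% of all transcript clusters did. Tfpi2, a secreted inhibitor of plasmin and other serine proteases, measured 3.56, 3.83 and 4.02 on day 14, 4.99, 5.58 and 5.91 on day 3, and 4.25, 4.00 and 3.72 in mock glands. The day 3 arrays lay above all others and were the only ones above the negative control median. The difference was 1.5 ± 0.26 (adjusted p = 0.00378). Furin, the convertase that removes the propeptide of membrane-type MMPs and many ADAMs, differed by -0.10 ± 0.23, and Reck, a membrane-anchored MMP inhibitor, by 0.38 ± 0.29.

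The 9 partners of Adam10 and Adam17 were rhomboid-related proteins and tetraspanins, which guide them to the cell surface, and Frmd8. Of these, 0 passed on day 3 (limma), and the range was -0.51 to 0.39. An unadjusted p under 0.05 was reached by 0 of the 9, beside 18.6% of all transcript clusters. Of 12 measured substrates of Adam10 and Adam17, 0 rose and 1 fell, beside 4.92% and 1.36% of all transcript clusters. The salivary growth factor Egf, also a marker of granular tubules, fell by 2.94 on day 3, with 12.00, 12.45 and 11.48 in resected and 14.10, 15.98 and 14.66 in mock glands (adjusted p = 0.00917). That call ended without day 3 resected replicate 3 and with trend and robust variances. The endothelial adhesion molecule Vcam1 differed by 0.82 ± 0.25 (adjusted p = 0.084) and the receptor Tnfrsf1b by 0.82 ± 0.36 (adjusted p = 0.247).

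Markers of cells known to make these enzymes were also higher on day 3, read beside 4.92% of all transcript clusters called higher. All 7 measured macrophage markers rose, and their log2 values summed to 65.1 to 66.6 on day 14, 83.6 to 86.6 on day 3 and 58.6 to 64.5 in mock glands. Fibroblast markers, with 5 of 7 that rose on day 3, summed to 74.1 to 77.7 on day 14, 84.9 to 94.9 on day 3 and 68.8 to 72.5 in mock glands. The largest differences in this list were those of the collagen genes Col1a1, Col3a1 and Col1a2, at 5.12, 4.69 and 4.14. Pdgfrb and Dcn differed by 0.70 and 0.66 and did not pass. Neutrophil markers, with 3 of 7 that rose, summed to 30.6 to 32.4 on day 14, 38.4 to 43.6 on day 3 and 31.7 to 32.7 in mock glands. The neutrophil granule genes Elane and Mpo did not pass, at -0.45 and -0.11.

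Of 6 mast cell markers 3 rose on day 3, beside 4.92% of all transcript clusters. Cma1, Kit and Ms4a2 differed by 0.70, -0.10 and -0.32 and did not pass. The log2 values of the 6 summed to 32.5 to 36.1 on day 14, 35.6 to 37.7 on day 3 and 29.0 to 32.6 in mock glands. Of 4 lymph node markers 1 rose, beside the same 4.92%: Cxcl13 differed by 3.17. Cr2, Ms4a1 and Ccl21a differed by -0.66, -0.14 and 0.75 and did not pass. Of 4 adipocyte and 4 skeletal muscle markers 0 passed on day 3 by limma. At an unadjusted p under 0.05 there were 0, beside 18.6% of all transcript clusters. Of 5 endothelial and 4 general epithelial markers 0 passed on day 3 (limma). At an unadjusted p under 0.05 there were 2 and 0, beside the same 18.6%. Dcpp3, the 1 measured of 4 markers of sublingual mucous cells, measured 14.05 to 19.71 on day 14, 7.80 to 19.69 on day 3 and 5.80 to 8.17 in mock glands.

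Several markers of the gland's own secretory cells fell on day 3. Of 4 measured granular tubule markers 3 fell and 0 rose, beside 1.36% and 4.92% of all transcript clusters, and their log2 values summed to 63.2 to 69.4 on day 14, 56.5 to 61.1 on day 3 and 65.1 to 69.4 in mock glands. Besides Egf, the kallikreins Klk1b16 and Klk1b27 fell, with differences of -2.54 ± 0.60 (adjusted p = 0.0236) and -2.29 ± 0.44 (adjusted p = 0.00661). Klk1 stood at the array maximum throughout. Of 6 serous acinar markers 2 fell and 0 rose: Bhlha15 differed by -1.19 ± 0.31 (adjusted p = 0.0386) and the ion transporter Slc12a2 by -1.15 ± 0.24 (adjusted p = 0.0108). Prol1, Pip and Car6 stood at the array maximum, and Aqp5 differed by 0.27 ± 0.34. The acinar sums were 106.7 to 108.0 on day 14, 104.2 to 106.2 on day 3 and 106.4 to 108.3 in mock glands. Bhlha15, Slc12a2, Klk1b16 and Klk1b27 were all called higher on day 14 than on day 3, by 1.38, 1.11, 2.69 and 2.30. Both calls of Klk1b27 held under all 16 alternatives. On day 3 against mock, Slc12a2 lost its call without day 3 resected replicate 3. Klk1b16 lost it when day 3 resected replicate 1 or 3 was left out, when mock replicate 2 or 3 was, and with trend and robust variances. Bhlha15 lost it in 7 of 16 alternatives, 6 of which left out an array: mock replicate 2 or 3, day 3 resected replicate 2 or 3, or day 14 resected replicate 1 or 3. Between the days, all 3 lost the call when day 3 resected replicate 3 or day 14 resected replicate 3 was left out, Bhlha15 also without day 3 resected replicate 2 or day 14 resected replicate 1, and Klk1b16 also without day 14 resected replicate 2 and with trend and robust variances. The part of any of these cell types in the members' differences was not tested.

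**Figure D4:**
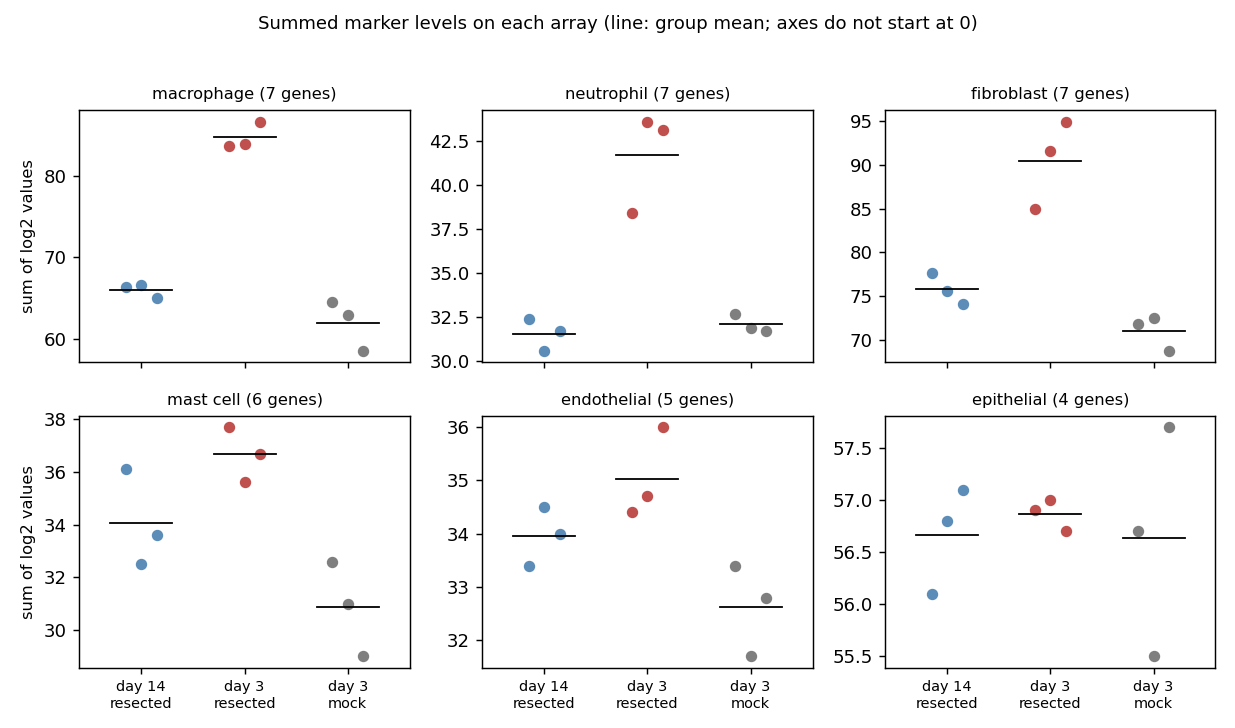
Sum of the log2 values of the measured markers of 6 cell types on each array, with day 14 resected left, day 3 resected in the middle and day 3 mock right. Lines are group means, and the vertical axes do not start at 0. Macrophage sums are 83.6 to 86.6 on day 3, above the 58.6 to 66.6 of all other arrays, while epithelial sums overlap between the groups.

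The comparison of day 14 resected with day 3 resected glands asks how levels moved between the early and the later time. Every member that passed was lower on day 14: 0 of 75 were called higher and 6 called lower by limma, beside 1.40% and 4.88% of all transcript clusters. The day 14 arrays lay wholly above the day 3 arrays for 3 of 75 members, beside 12.9% of all transcript clusters, and wholly below them for 13 of 75, beside 12.5%. The median difference of the members was -0.03, against 0.06 over all transcript clusters. Timp1 fell by 5.99 (SE 0.37, adjusted p = 2.5e-06) and Mmp12 fell by 4.62 (SE 0.45, adjusted p = 5.0e-05). Mmp3 fell by 2.64 (SE 0.35, adjusted p = 4.5e-04). Mmp14 fell by 1.84 (SE 0.37, adjusted p = 0.00913), Mmp19 fell by 1.75 (SE 0.32, adjusted p = 0.0044) and Adam8 fell by 2.28 (SE 0.59, adjusted p = 0.0361). In each of these 6 genes the 3 day 14 arrays lay below the 3 day 3 arrays.

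The other risers of day 3 were not called between the days. Mmp2 differed by -1.06 ± 0.34 (adjusted p = 0.0938) and was separate between the groups, whereas Mmp9 (-0.78 ± 0.35), Mmp13 (-0.84 ± 0.35) and Adamts1 (-0.39 ± 0.35) overlapped. Adamts6 differed by -0.02 ± 0.19. Of the pathway genes, Anxa2 fell by 2.01 (adjusted p = 0.0053), S100a10 fell by 1.52 (adjusted p = 0.0117) and Tfpi2 fell by 1.69 (adjusted p = 0.00148) between day 3 and day 14, and Egf was higher by 2.83 on day 14 (adjusted p = 0.0114). The calls of Mmp14 and S100a10 ended without day 3 resected replicate 2 or 3, at an adjusted p of at most 0.0556 and 0.0611. The call of Egf ended without day 3 resected replicate 3 or day 14 resected replicate 3 and with trend and robust variances, and that of Adam8 without any 1 of 7 arrays, with values of -3.08 to -1.42 over the arrays left out.

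Set against mock, day 14 resected glands had 0 of 75 members called in either direction by limma, beside 0.153% of all transcript clusters. At an unadjusted p under 0.05 there were 12 members, where 8.18% of all transcript clusters reached that level. The median difference was 0.08, against -0.00 over all transcript clusters, with a range of -0.88 to 1.01. The day 14 arrays lay wholly above the mock arrays for 15 of 75 members, beside 6.03% of all transcript clusters, and wholly below for 6 of 75, beside 6.99%. The count of 0 held in all 16 alternatives that could change it.

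Members differed in how far day 14 values lay from mock. Mmp2 had the highest difference, 1.01 ± 0.34 (adjusted p = 0.447), followed by Adamts1 at 0.89 ± 0.35 (adjusted p = 0.548) and Mmp12 at 0.86 ± 0.45 (adjusted p = 0.659). That of Mmp12 was 0.37 without mock replicate 3 and 1.38 without mock replicate 1. Adamts5, Mmp14, Mmp9 and Adamts6 differed by 0.80, 0.78, 0.77 and 0.71, each short of the threshold. Timp1 differed by 0.47 ± 0.37, Adam8 by 0.08 ± 0.59 and Mmp3 by -0.07 ± 0.35. Of the 10 risers of day 3, 6 lay wholly above the mock arrays on day 14 and 4 overlapped them. The 6 were Timp1, Mmp2, Mmp9, Mmp13, Adamts1 and Adamts6, where 6.03% of all transcript clusters lay wholly above. The risers had been chosen for exceeding the same mock arrays, so that share is not an even comparison. On day 14 Timp1, Mmp9 and Adamts6 lay below the negative control median on every array, and Mmp13 was near it at 4.76, 4.13 and 4.14. Both comparisons use the same mock arrays, so an unusual mock value would enter both.

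Adamts14 measured 7.24, 6.97 and 7.01 on day 14, 6.88, 6.44 and 6.45 on day 3, and 6.65, 6.67 and 5.92 in mock glands. It was separate from mock on day 14 and not on day 3, with a day 14 difference of 0.66 ± 0.25 that did not pass (adjusted p = 0.522). Adamts3, the other procollagen N-propeptidase measured, went the other way on day 14, with 2.24, 2.16 and 2.65 against 3.07, 2.89 and 2.89 in mock glands. All its values were below the negative control median. Among the members named above, Mmp19, Adam22 and Adamts3 had day 14 arrays wholly below mock. They differed by -0.61 ± 0.32 (adjusted p = 0.657), -0.76 ± 0.24 (adjusted p = 0.390) and -0.60 ± 0.27 (adjusted p = 0.598).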

How the data were processed

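Per the labels and the series' design text, RNA from 9 glands was hybridised to Clariom S arrays, and the authors made log2 values per transcript cluster with Transcriptome Analysis Console 4.0 and RMA, a method that corrects background, scales arrays to each other and summarises probes, so that values hold no absolute amount. The genome build and annotation were not given in the sources used here.

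The deposited table held 28846 rows. The 6640 control rows were left out, and the deposited log2 values of the other 22206 transcript clusters were fitted in R 4.3.3 with limma 3.58.1, with a mean per group, all 9 arrays in 1 model (6 residual and 6.63 prior degrees of freedom), two-sided p-values and Benjamini-Hochberg adjustment within each comparison at a threshold of 0.05. The code of the fit was run on simulated data with independent arrays and a large uniform shift. That setting holds no array effects and no small differences, so it does not bear on calls near the threshold. Groups and replicate numbers come from the labels. The number of arrays limits the precision.

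Symbols came from the platform's probe table and RefSeq (GRCm38.p6), and so did the promoter windows, which 45 of 75 members matched. Of several transcript clusters of a symbol, that with the highest mean was used. Members, lists and the naming rule were chosen with earlier results of these data known. Named were members past the threshold in any comparison, a set panel, and the 3 with the highest mean in each family. Adam11, Adam22, Adam23, Adamts3, Adamts8, Adamts20 and members given for a count or a range were named after their values were seen. Roles are textbook roles, since protein sequences were not used here. Alternatives were quantile normalisation, median centring, leaving out the dimmest 30%, trend and robust variances, array weights, only the groups compared, a replicate block, leaving out each array, and the mean over a symbol's transcript clusters, which cannot change a gene with 1.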

Additional observations from a re-analysis of the deposited data

Results flagged for a closer look

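The difference between the effects on day 14 and on day 3, each against mock, was tested for every member, and 6 members passed. Because the mock arrays cancel, this test is the comparison of day 14 with day 3 resected arrays. The values, day 14 minus day 3, were -5.99 for Timp1, -4.62 for Mmp12, -2.64 for Mmp3, -2.28 for Adam8, -1.84 for Mmp14 and -1.75 for Mmp19 (limma adjusted p from 2.5e-06 to 0.0361).

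Timp1 lay 0.47 above mock on day 14 and 6.46 above it on day 3, and Mmp12 lay 0.86 and 5.48 above it. Mmp19 differed from mock by -0.61 on day 14 and by 1.13 on day 3, neither of which passed alone. The differences of Timp1, Mmp12, Mmp3 and Mmp19 passed under all 16 alternatives that could change them, that of Mmp14 under 14 and that of Adam8 under 6 of 15. Adam8 was -1.42 without day 3 resected replicate 3. Groups of 3 arrays are too small for the check on single outlying samples, which was not applied.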

How the results depend on the processing

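On day 3 against mock the 10 members called became 5 with only the groups compared, and 5 to 11 when 1 array was left out: 5 without day 3 resected replicate 3 or mock replicate 1, 6 without mock replicate 3, and 11 without day 3 resected replicate 1. The labels state no block, and the deviations from the group means of arrays with the same replicate number correlated at -0.09 to 0.05. Taken over all transcript clusters, such correlations cannot exclude a block that touches only some genes. With the replicate block the count was 8, of which 7 were among the 10, and Adamts5 was gained (adjusted p = 0.0488); the block left the counts of 0 and 6 in the other comparisons as they were. Other settings gave 9 or 10. Between day 14 and day 3 the 6 became 4 to 9, and on day 14 against mock the count of 0 held in all 16 alternatives that could change it. The mean over a symbol's transcript clusters could not, since each of the 46 genes recomputed has 1, and is not counted. For single genes, 1063 of 1173 recomputed differences kept their direction and their side of the threshold, 89 lost and 9 gained a call, and 12 changed sign, none of a member called in that comparison. After quantile normalisation Adamts14 differed by -0.00 and Timp4 by 0.06 on day 3. Over the arrays left out, the day 3 difference ran from -0.07 to 0.31 for Adam15, -0.01 to 0.32 for Adam28, -0.07 to 0.31 for Adamts14 and -0.26 to 0.18 for Timp4. That of day 14 against mock ran from -0.08 to 0.25 for Adam8 and from -0.55 to 0.19 for Mmp3. The cause was not tested. On day 3 the median of all 75 members, 0.09, was 0.55 over the 38 left without the dimmest 30%, and that of the MMPs 1.22 over the 12 left. The means used for this filter include the day 3 resected arrays, so it favours genes that are high on day 3. The markers of acini and granular tubules were recomputed after seeing the data. Signal over background limits the 42 members below the negative control median on all arrays, of which 1, Adamts6, was called on day 3. It also limits the 5 of the 10 risers that lay below that median on all mock arrays: Timp1, Mmp9, Mmp13, Adam8 and Adamts6.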

Other observations

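The metzincins outside the named families, which share the zinc-binding fold of the MMPs, had 1 of 7 that rose and 1 that fell on day 3, beside 4.92% and 1.36% of all transcript clusters. Bmp1, the procollagen C-proteinase, measured 5.94, 6.38 and 5.87 on day 14, 6.96, 7.79 and 8.35 on day 3, and 6.23, 6.03 and 5.98 in mock glands. It rose by 1.62 ± 0.31 on day 3 (limma adjusted p = 0.00624). Its close relative Tll1 (tolloid-like 1) went the other way, with 6.62, 6.62 and 6.56 on day 14, 4.49, 5.24 and 4.84 on day 3, and 6.86, 6.94 and 6.97 in mock glands. It fell by 2.07 on day 3 (adjusted p = 1.2e-04) and was 1.75 ± 0.22 higher on day 14 than on day 3 (adjusted p = 2.8e-04). Both calls of day 3 held in all 16 alternatives that could change them.

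Of the 4 hyalectans that ADAMTS proteases cut, 1 rose on day 3, beside 4.92% of all transcript clusters. Versican (Vcan) rose by 2.18 ± 0.35 (limma adjusted p = 0.00186), with 7.52, 8.30 and 8.83 in resected and 6.69, 5.85 and 5.56 in mock glands. Acan, Ncan and Bcan differed by -0.41, 0.30 and -0.26 and did not pass. Of 7 ADAMTS-like proteins, which lack a protease domain, 0 passed by limma, with differences of -0.78 to 0.27. An unadjusted p under 0.05 was reached by 2, beside 18.6% of all transcript clusters.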
